A study of Mus musculus with 9 samples.

Results

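Inflammasomes are protein platforms that macrophages assemble when a sensor meets a microbial or danger signal. The sensors NLRP3, NLRP1B, NLRC4 and AIM2 activate caspase-1, in the case of NLRP3 and AIM2 through the adaptor ASC, encoded by Pycard. Caspase-1 matures the cytokines IL-1β and IL-18 and cleaves gasdermin D into a pore-forming fragment. Caspase-4 of the mouse, also known as caspase-11, senses cytosolic lipopolysaccharide and cleaves gasdermin D directly, and the lytic death that follows is called pyroptosis. TXNIP, a thioredoxin-interacting protein, restrains glucose uptake and has been described as a ligand of NLRP3. The genes described here are Nlrp3, Nlrp1b, Nlrc4, Aim2, Pycard, Casp1, Casp4, Gsdmd, Il18 and Txnip. They were chosen by symbol, and all 10 were found among the 23413 genes of the count table.

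The table holds RNA-seq counts of liver macrophages sorted as F4/80+CD11b+Gr1low cells, a gate that takes in Kupffer cells (KCs), the resident macrophages of the liver. All mice were C57BL/6 males that went on their diet at 5 weeks of age and stayed on it for 8 weeks. The ND group (2 libraries) received a normal diet with 10 kcal% fat. The Veh group (3 libraries) received a high-fat diet (HFD) with 60 kcal% fat and vehicle injections, and the DPI group (4 libraries) received the same HFD and 2 mg/kg diphenyleneiodonium (DPI), an inhibitor of flavin enzymes that the study uses as an agonist of the receptor GPR3, every 5 days from week 3. One label field describes a treatment of isolated cells instead, and the injections were followed here because the series' design text and the methods describe them. The comparison of Veh with ND asks what the diet with vehicle did, and that of DPI with Veh what DPI did on the diet. The sample titles number the mice, 1 to a library, whereas the study describes more mice in each group than there are libraries, and whether animals were pooled is not given in the sources used here. The labels give no treatment for the ND mice, so diet and vehicle injection cannot be told apart.

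Library totals ranged from 3534325 to 15585775 counts (median 4918629), with 27% to 44.5% of them on the ribosomal RNA precursor Rn45s. Levels are given as CPM, the usual library-size-scaled count unit, computed with edgeR's TMM factors, in which 3 counts correspond to 0.184 to 1.02 CPM. All 10 members passed the filter on low counts that left 11393 genes for testing. Of the macrophage markers, Emr1, Csf1r and Cd68 had at least 219 counts in every library, whereas the KC genes Clec4f and Timd4 had 0 counts in 3 and 5 of the 9 libraries. The 12 measured neutrophil markers summed to 1481 and 3410 CPM in ND, 2625 to 4061 CPM in Veh and 973 to 5786 CPM in DPI, where DPI 1 and DPI 2 were the 2 lowest libraries of all. The same DPI 1 and DPI 2 had 184 and 83.9 CPM of 8 sinusoidal endothelial markers, as did the ND libraries (129 and 264 CPM), against at most 12.8 CPM in the other HFD libraries. Between ND and Veh, dendritic cell markers (73 and 180.0 against 234 to 381 CPM), B cell markers (15.8 and 75.8 against 111 to 196 CPM) and hepatocyte markers (123 and 283 against 18.3 to 73.9 CPM) did not overlap either. Eosinophil markers summed to 117, 117 and 73.7 CPM in DPI 1, DPI 2 and DPI 4 and to at most 7.77 CPM in the other libraries. Monocyte markers summed to 8910 CPM in DPI 1 and to at most 5816 CPM elsewhere. For the members, only the neutrophil markers were entered as a covariate, and the part of the other markers in the results was not tested. In bulk RNA of sorted cells, fewer cells that express a gene and less RNA per cell cannot be told apart.

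The promoters of 9 members were found in RefSeq (GRCm38.p6), and those of Nlrp3, Aim2 and Txnip, the members with the smallest p between DPI and Veh, are shown, each as the 250 bases before the transcription start, on the gene's strand. The motifs searched on both strands were CACGTG, a pair of CACGNG boxes 5 bases apart, GAGGAAGT, TGANTCA and NF-kB. The motifs were chosen after the values had been seen. Any CACGTG is also a CACGNG box. Capitals mark the matches.

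Nlrp3, chr11:59541319-59541568, plus strand: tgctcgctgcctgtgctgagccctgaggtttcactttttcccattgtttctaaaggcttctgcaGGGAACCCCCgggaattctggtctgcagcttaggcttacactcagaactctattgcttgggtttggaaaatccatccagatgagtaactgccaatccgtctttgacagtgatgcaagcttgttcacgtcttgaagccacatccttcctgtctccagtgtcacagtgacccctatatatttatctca

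Aim2, chr1:173420354-173420603, plus strand: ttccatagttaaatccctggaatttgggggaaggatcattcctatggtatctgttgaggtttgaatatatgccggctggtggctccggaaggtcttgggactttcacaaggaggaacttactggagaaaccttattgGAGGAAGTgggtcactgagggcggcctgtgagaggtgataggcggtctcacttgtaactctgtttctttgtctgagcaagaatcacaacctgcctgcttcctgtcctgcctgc

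Txnip, chr3:96557707-96557956, plus strand: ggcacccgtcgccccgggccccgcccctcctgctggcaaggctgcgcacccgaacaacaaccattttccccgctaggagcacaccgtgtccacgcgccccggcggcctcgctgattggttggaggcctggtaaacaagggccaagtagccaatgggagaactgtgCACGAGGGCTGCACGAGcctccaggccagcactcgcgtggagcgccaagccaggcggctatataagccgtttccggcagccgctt

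The Nlrp3 window, at the upstream one of its 2 listed starts, holds 1 match to the NF-kB motif, which 7.25% of all 32851 promoter windows of this length hold. NF-kB is the factor through which Toll-like receptor signals prime Nlrp3. The second Nlrp3 window held no match. The Aim2 window holds GAGGAAGT, a sequence that the macrophage factor PU.1 binds (2.44% of windows), and matches to it were also found for Pycard and Nlrp1b. This Aim2 window, taken at the RefSeq start, lies inside the GENCODE M21 span of the gene, which begins upstream at 173350879. The Txnip window holds the box pair, 85 to 69 bases before the start, which 15 of the 32851 windows (0.0457%) hold. Paired boxes of this kind are the carbohydrate response elements through which glucose-sensing factors act on Txnip. A match in Txnip was therefore foreseeable, and its rarity is not a finding of these data. Casp4 held 3 matches to the NF-kB motif, of which GGGGATTTCC and GGGATTTCCC overlap in 1 stretch. The same matches lie in the overlapping windows of its listed starts. Casp1 held CACGTG (6.02% of windows). No member window held TGANTCA, which 6.75% of windows hold. A match describes the letters only.

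Nlrp3 (chromosome 11 from 59541568 to 59566956, GRCm38), the sensor of potassium loss and crystals, was the member with the largest estimated difference between DPI and Veh. It had 13.7 and 33.2 CPM in ND, 65.7, 30.7 and 72.1 CPM in Veh, and 18.6, 4.76, 28.8 and 36.4 CPM in DPI. Veh 1 and Veh 3 stood above every other library, and Veh 2 lay among the ND and DPI libraries, so that the groups overlapped in all comparisons. DPI against Veh gave a log2 fold change of -1.33 (SE, standard error, 0.55), a level 2.51-fold lower, with an unadjusted p of 0.0316 and an adjusted p of 0.999 over the 11393 genes (edgeR quasi-likelihood test). Veh against ND gave 1.26 (SE 0.69, unadjusted p = 0.0924, adjusted p = 0.458, the same edgeR test), and DPI against ND gave -0.07 (SE 0.63). The 3 comparisons share libraries, so the first 2 values are not independent of each other.

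**Figure D1:**
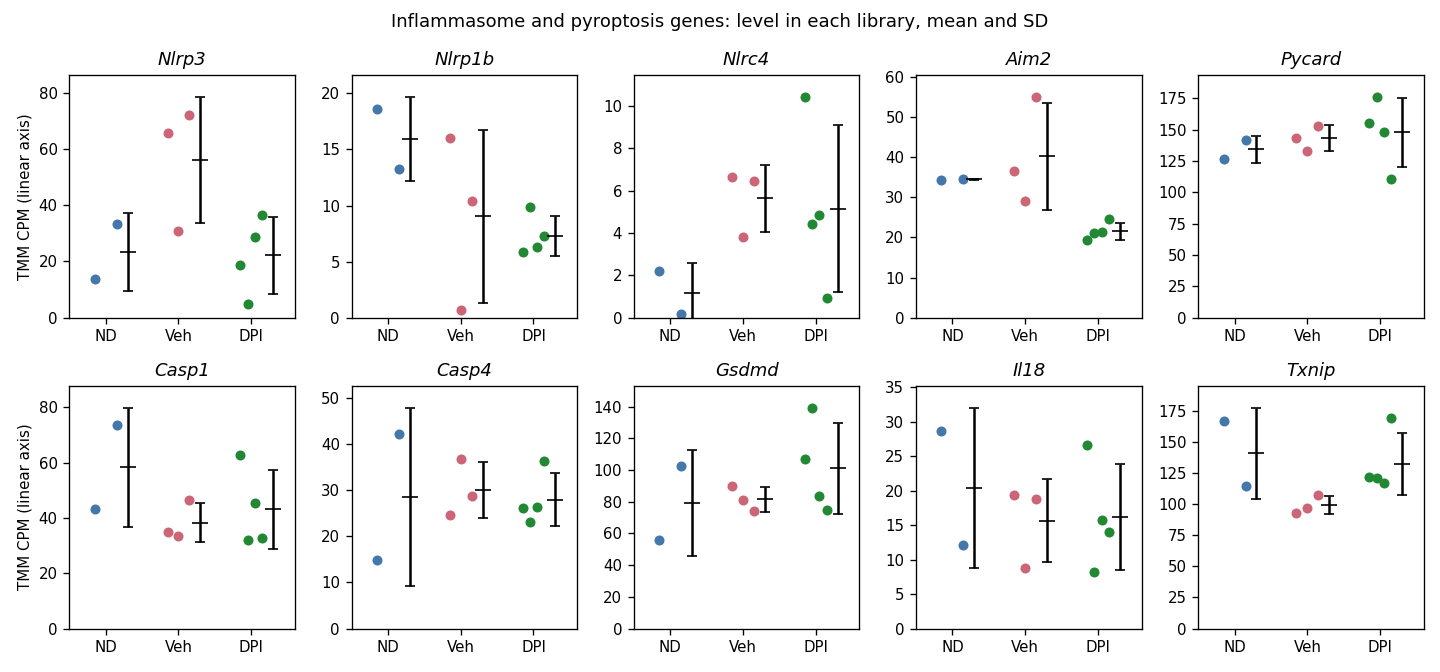
TMM-scaled CPM (linear axes from 0) of the 10 members in each of 9 libraries, by group, with the mean and SD of the group as a bar beside the points (a bar that would pass below 0 is cut there). All 4 DPI libraries lie below all Veh libraries for Aim2 and above them for Txnip, while Nlrp3 overlaps between Veh and DPI and Pycard is nearly level.

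Within the DPI group, Nlrp3 had the same order over libraries as the neutrophil markers, and also as the B cell markers (17, 48.7, 125 and 451 CPM in DPI 2, DPI 1, DPI 3 and DPI 4). Dendritic cell markers were likewise lower in DPI 1 and DPI 2 (161 and 181 CPM) than in DPI 3 and DPI 4 (325 and 514 CPM). The Veh libraries did not follow the neutrophil markers, since Veh 1 had the fewest (2625 CPM) and more Nlrp3 than Veh 2. ND 1 was below ND 2 in both, with 1481 against 3410 CPM of neutrophil markers and 13.7 against 33.2 CPM of Nlrp3. DPI 2 and DPI 1, at 973 and 1180 CPM of neutrophil markers, had the lowest Nlrp3, and DPI 3 and DPI 4, at 4015 and 5786 CPM, the highest. With the neutrophil marker level as a covariate, a setting chosen after the data had been seen, the log2 fold change of Nlrp3 for DPI against Veh was -1.14 (unadjusted p = 0.0298, edgeR quasi-likelihood test). Without DPI 1 and DPI 2 it was -0.78 (unadjusted p = 0.16, the same edgeR test), and leaving out Veh 1, Veh 3, DPI 1 or DPI 2 alone also took the unadjusted p above 0.05, with log2 fold changes from -1.67 to -1.01 over all 9 libraries left out in turn. For Veh against ND the log2 fold change of Nlrp3 moved with the ND libraries. It was 0.76 without ND 1 (unadjusted p = 0.348) and 2.06 without ND 2 (unadjusted p = 0.0294, edgeR), each against 1 ND library that was assumed to vary like the other groups. It was 1.30 without DPI 2 (unadjusted p = 0.0338) and 1.26 without DPI 1 and DPI 2 (unadjusted p = 0.0376, edgeR).

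Aim2 (chromosome 1 from 173350879 to 173466040), the sensor of cytosolic double-stranded DNA, was lower in each DPI library than in any ND or Veh library. Its levels were 34.4 and 34.6 CPM in ND, 36.6, 29 and 55 CPM in Veh, and 19.2, 21.1, 21.3 and 24.5 CPM in DPI. The DPI libraries lay close together, with 21.5 ± 2.18 CPM (SD, n = 4) against 40.2 ± 13.4 CPM (SD, n = 3) in Veh, whose spread came mostly from Veh 3. The log2 fold change was -0.90 (SE 0.34) for DPI against Veh, 1.87-fold lower, with an unadjusted p of 0.0189 and an adjusted p of 0.999 (edgeR quasi-likelihood test). It was -0.68 (SE 0.38, unadjusted p = 0.094) for DPI against ND and 0.22 (SE 0.41) for Veh against ND. With scaling by library size alone the last value was negative and that for DPI against ND was -0.89 (unadjusted p = 0.0387, edgeR). Without Veh 3 the value for DPI against Veh was -0.62 (unadjusted p = 0.133, edgeR), and without DPI 1 and DPI 2 it was -0.81 (unadjusted p = 0.0925, edgeR). With the neutrophil covariate it was -0.84 (unadjusted p = 0.0374, edgeR). DPI 1 and DPI 2, poor in neutrophil markers, had Aim2 levels like those of DPI 3 and DPI 4.

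**Figure D2:**
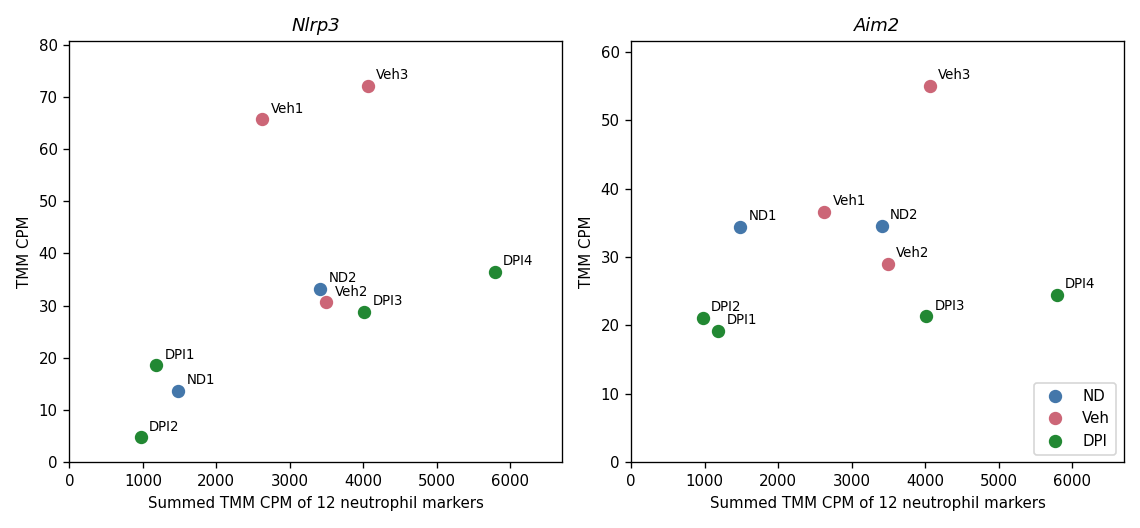
TMM CPM of Nlrp3 (left) and Aim2 (right) against the summed TMM CPM of 12 neutrophil markers, 1 point per library, coloured by group, all axes linear. In DPI, Nlrp3 runs from 4.76 CPM at 973 CPM of neutrophil markers to 36.4 CPM at 5786, whereas Aim2 stays between 19.2 and 24.5 CPM over the same range.

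Nlrc4 (chromosome 17 from 74425438 to 74459142), which forms an inflammasome with NAIP proteins that bind bacterial flagellin and secretion needles, was the rarest member. It had 12 and 1 counts in ND, 30, 21 and 26 in Veh, and 170, 13, 26 and 9 in DPI. In CPM these were 2.19 and 0.187 in ND, 6.66, 3.81 and 6.44 in Veh, and 10.4, 4.42, 4.82 and 0.918 in DPI. Each Veh library lay above both ND libraries, with a log2 fold change of 2.23 (SE 1.31, unadjusted p = 0.113, edgeR quasi-likelihood test) that did not pass the test. The difference rested on few ND counts. Without ND 2 it was 1.38 (unadjusted p = 0.325, edgeR), and without ND 1 the ND group was 1 library with 1 count, below the floor of 3 counts, so no fold is given. DPI against ND gave 2.10 (SE 1.27), which was 1.27 without ND 2, 1.48 without DPI 1 and 1.25 without DPI 1 and DPI 2, none with an unadjusted p under 0.05. With the neutrophil covariate Veh against ND gave 3.15 (unadjusted p = 0.0408, edgeR). DPI against Veh gave -0.12 (SE 0.99), a difference smaller than the spread of the 4 DPI libraries, and turned positive under the replicate block and without Veh 1 or DPI 4.

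The Naip genes encode the partners of NLRC4. Naip2 and Naip5 gave log2 fold changes of -0.06 (SE 0.39) and -0.74 (SE 0.39) for Veh against ND, and -0.58 (SE 0.33) and 0.39 (SE 0.34) for DPI against Veh. Naip6 gave -1.30 (SE 0.61) and -0.04 (SE 0.52). None of these 6 values had an unadjusted p under 0.05. Naip6 was called lower for DPI against ND, with -1.33 (SE 0.57, unadjusted p = 0.0347, edgeR). The Naip genes are close copies of each other, so reads may have been shared out between them in counting.

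Nlrp1b (chromosome 11 from 71153102 to 71230733), a sensor that anthrax lethal factor cleaves in some mouse strains, was highest in ND. It had 18.6 and 13.3 CPM in ND, 16, 0.725 and 10.4 CPM in Veh, and 5.88, 9.85, 6.31 and 7.25 CPM in DPI. Each DPI library lay below both ND libraries, with a log2 fold change of -1.13 (SE 0.82, unadjusted p = 0.193, edgeR quasi-likelihood test). Veh 2, at 4 counts, was the lowest library of all. Veh against ND gave -0.82 (SE 0.88), with overlapping groups. It was -1.49 without Veh 1 and -0.27 without Veh 2. Its sign for DPI against Veh (-0.31, standard error 0.75) turned under the replicate block and without Veh 1. The neighbouring copies Nlrp1a and Nlrp1c-ps, with which it may share reads, were both called lower in DPI than in ND.

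Pycard (chromosome 7 from 127989708 to 127993867), the adaptor gene, was the steadiest member. It had 127 and 142 CPM in ND, 144, 133 and 153 CPM in Veh, and 156, 176, 148 and 111 CPM in DPI, a range of 1.59-fold over all 9 libraries. The log2 fold changes were 0.10 (SE 0.29) for Veh against ND, 0.04 (SE 0.24) for DPI against Veh and 0.14 (SE 0.27) for DPI against ND. These estimates had the smallest standard errors of the set in each comparison, and each was smaller than its own standard error. Scaling by library size alone made the first and the last negative, and without DPI 2 the second was negative.

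The caspase genes lie side by side on chromosome 9, Casp1 from 5298517 to 5307265 and Casp4 from 5308828 to 5336783, with 1562 bases between them, and their levels did not run in parallel. Casp1, the protease of the canonical pathway, had 43.2 and 73.6 CPM in ND, 35.1, 33.4 and 46.6 CPM in Veh, and 62.6, 31.9, 45.3 and 32.7 CPM in DPI. Its log2 fold change was -0.61 (SE 0.40, unadjusted p = 0.156, edgeR quasi-likelihood test) for Veh against ND and 0.17 (SE 0.34) for DPI against Veh, with the groups overlapping in both, except that Veh lay below ND with scaling by library size alone. The first value was -0.93 without ND 1 and -0.14 without ND 2. Casp4, the protease of the noncanonical pathway, had 14.9 and 42.2 CPM in ND, 24.6, 36.6 and 28.7 CPM in Veh, and 26, 23.1, 26.3 and 36.3 CPM in DPI. The ND libraries, which lay on either side of all 7 HFD libraries, set its spread, and the log2 fold changes were 0.07 (SE 0.48) for Veh against ND and -0.10 (SE 0.40) for DPI against Veh. Scaling by library size alone made the first of these negative.

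Gsdmd (chromosome 15 from 75862327 to 75867408), whose product forms the pore, had 55.7 and 103 CPM in ND, 89.9, 80.9 and 74.1 CPM in Veh, and 107, 139, 83.7 and 74.6 CPM in DPI. The 2 highest libraries were DPI 2 and DPI 1, and the lowest DPI library lay within the Veh range. The log2 fold change was 0.31 (SE 0.30) for DPI against Veh and 0.04 (SE 0.36) for Veh against ND, where library size scaling turned the sign. Without DPI 1 and DPI 2 the first value was -0.05. Across the 9 libraries, Gsdmd and Pycard had the highest correlation of log2 CPM of the pairs of members (Pearson r = 0.72), which is a description, since the libraries belong to 3 groups and share the same scaling.

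Il18 (chromosome 9 from 50554827 to 50581840), the cytokine that caspase-1 matures and that acts on T and NK cells, had 28.6 and 12.1 CPM in ND, 19.3, 8.71 and 18.8 CPM in Veh, and 26.5, 8.15, 15.8 and 14 CPM in DPI. In each group the highest library had over 2 times the level of the lowest. The log2 fold changes were -0.39 (SE 0.63) for Veh against ND and 0.06 (SE 0.53) for DPI against Veh, and no difference was detectable against that spread.

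Txnip (chromosome 3 from 96557957 to 96561883) showed the reverse of the order of Aim2 within the HFD groups. It had 167 and 115 CPM in ND, 93.2, 97.4 and 107.5 CPM in Veh, and 122, 121, 117 and 169.7 CPM in DPI. Each of the 3 Veh libraries lay below each ND and each DPI library, also with scaling by library size alone. The differences were small and neither passed the test, with log2 fold changes of -0.50 (SE 0.30, unadjusted p = 0.113) for Veh against ND and 0.42 (SE 0.25, unadjusted p = 0.124) for DPI against Veh (edgeR quasi-likelihood test). Both rest on the same Veh libraries, and the first ran from -0.72 to -0.20 with each library left out, -0.20 being without ND 1. DPI against ND gave -0.09 (SE 0.28). DPI 4 stood apart from the other DPI libraries, and without it the value for DPI against Veh was still positive, as it was without any other library (0.27 to 0.47). Scaling by library size alone gave -0.81 for Veh against ND, with an unadjusted p of 0.0314 (edgeR), and moved the median of all genes from 0.03 to -0.26.

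**Figure D3:**
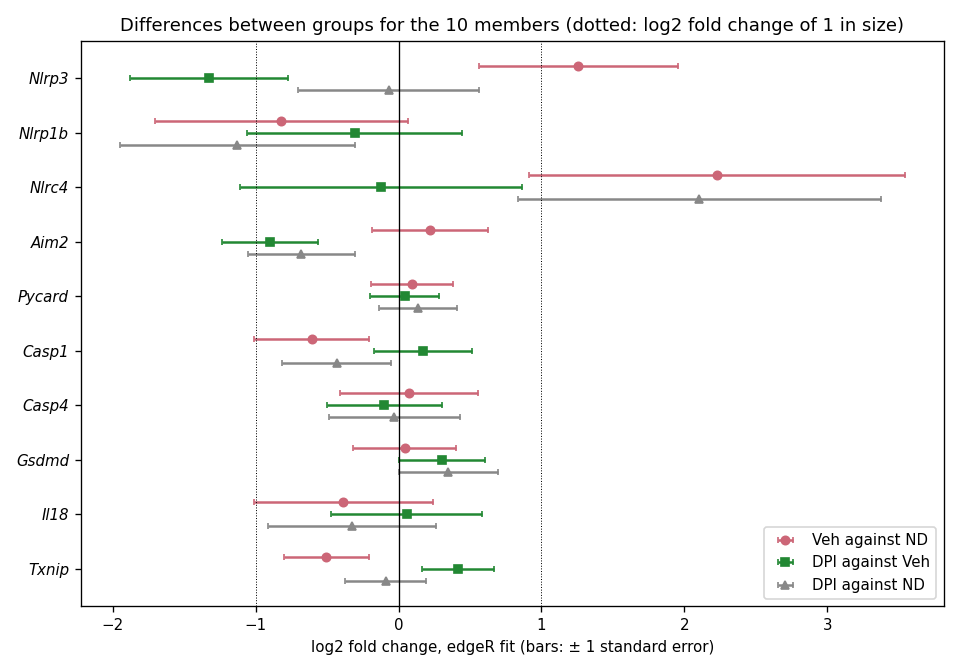
log2 fold change of each member in the 3 comparisons from the edgeR fit of all 9 libraries, with bars of 1 standard error on either side and dotted lines at a log2 fold change of 1 in size. Nlrp3 lies at 1.26 for Veh against ND and at -1.33 for DPI against Veh, Nlrc4 has the widest bars, and all 3 values of Pycard lie within 1 standard error of 0.

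At the threshold of the study's methods, an unadjusted p under 0.05 with at least a doubling or halving, 0 of 10 members were called for Veh against ND, where 11.5% of the 11393 genes were (784 higher and 521 lower, or 520 and 929 with scaling by library size alone). For DPI against Veh 1 of 10 was called, Nlrp3, lower, beside 1.33% of all genes called lower and 2.79% called in either direction (167 higher and 151 lower, or 194 and 98 with scaling by library size alone). With that scaling 0 of 10 members were called, Nlrp3 having a log2 fold change of -1.17 (unadjusted p = 0.0589, edgeR). For DPI against ND 0 of 10 were called, beside 9.18% of all genes (699 higher and 347 lower, or 526 and 614). By an unadjusted p under 0.05 alone, the counts were 0 of 10 (12.9% of all genes), 2 of 10 (Nlrp3 and Aim2, 4.18%) and 0 of 10 (10.8%). No member had an adjusted p under 0.05 in any comparison (0.0702%, 0% and 0.0176% of all genes, edgeR quasi-likelihood test), nor with DESeq2 or edgeR's likelihood ratio test. Groups did not overlap in TMM CPM for 2 members for Veh against ND (Nlrc4 and Txnip, beside 27.5% of all genes), 2 for DPI against Veh (Aim2 and Txnip, 5.85%) and 2 for DPI against ND (Aim2 and Nlrp1b, 20.2%). With scaling by library size alone, Pycard and Casp1 also did not overlap for Veh against ND, both lower. The share of all genes under that scaling was not counted, and their median log2 fold change was -0.26. The median log2 fold change of the members was 0.06, -0.03 and -0.08 in the 3 comparisons, against 0.03, 0.04 and 0.04 for all genes.

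Levels of different genes were compared as CPM per kilobase of exon, with lengths from GENCODE M21. Averaged over the 9 libraries, Txnip, Gsdmd and Pycard stood at the top with 39.5, 37.7 and 37.7 CPM per kilobase, and neighbours in this trio changed places between libraries. Casp1 followed at 30 CPM per kilobase, below Pycard in 7 of 9 libraries. Il18 came next at 16.4 CPM per kilobase and lay below Casp1 and above Aim2 in each of the 9 libraries. Aim2, Nlrp3 and Casp4 had 8.75, 8.32 and 7.76 CPM per kilobase and were not in a fixed order. Nlrp1b and Nlrc4 were lowest, at 1.55 and 0.921 CPM per kilobase. With these lengths the adaptor, gasdermin D and caspase-1 genes had higher mean levels than any sensor. With the shortest listed transcripts, Casp1 at 30 CPM per kilobase would lie below Aim2 (94) and Nlrp3 (49.9). Nlrp1b and Nlrp3 ranged 25.6- and 15.2-fold between their highest and lowest libraries, with the lowest at 4 and 14 counts, while Txnip and Pycard ranged 1.82- and 1.59-fold. For Nlrc4 the lowest library was ND 2 at 1 count, below the floor on counts, so no fold is given for its range. Lengths matter for some ranks, since the longest coding transcript of Casp4 is 1435 bases against 3710 for its joined exons, which would place it at 20.1 CPM per kilobase, and the 2 listed transcripts of Pycard have 3800 and 493 bases.

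The gene most like each member was sought over all tested genes by Pearson r of log2 CPM over the 9 libraries. For Nlrp3 it was Gm6602 (r = 0.973), for Aim2 Dopey1 (r = 0.95), for Pycard Cd48 (r = 0.949), for Gsdmd Mettl3 (r = 0.984) and for Txnip Kars (r = 0.977). For the others it was Smc6 (Nlrp1b, r = 0.934), Ifi27l2a (Nlrc4, r = 0.98), Mup1 (Casp1, r = 0.939), Fam98c (Casp4, r = 0.951) and 1110001J03Rik (Il18, r = 0.949). With 9 libraries and 11393 genes, values this high describe the libraries only.

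Around the members, 4 lists of further pathway genes were followed, on other sensors, on priming and triggering, on other caspases and membrane rupture, and on the ligands, receptors and antagonists of IL-1 and IL-18. None of their genes had an adjusted p under 0.05 in any comparison (edgeR quasi-likelihood test). At the study's threshold, 2 of 12 tested other sensors, 3 of 19 priming genes, 3 of 13 caspase and rupture genes and 3 of 9 IL-1 and IL-18 genes were called for Veh against ND, beside 11.5% of all genes. For DPI against Veh the counts were 1, 1, 0 and 2, beside 2.79% of all genes, and for DPI against ND 4, 1, 1 and 2, beside 9.18%. Their median log2 fold changes for Veh against ND were -0.05, 0.27, -0.15 and 0.96, and for DPI against Veh -0.57, -0.34, 0.25 and -0.58, against 0.03 and 0.04 for all genes. Genes at or under 3 counts in a whole group leave these medians the same when set to their bounds.

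**Figure D4:**
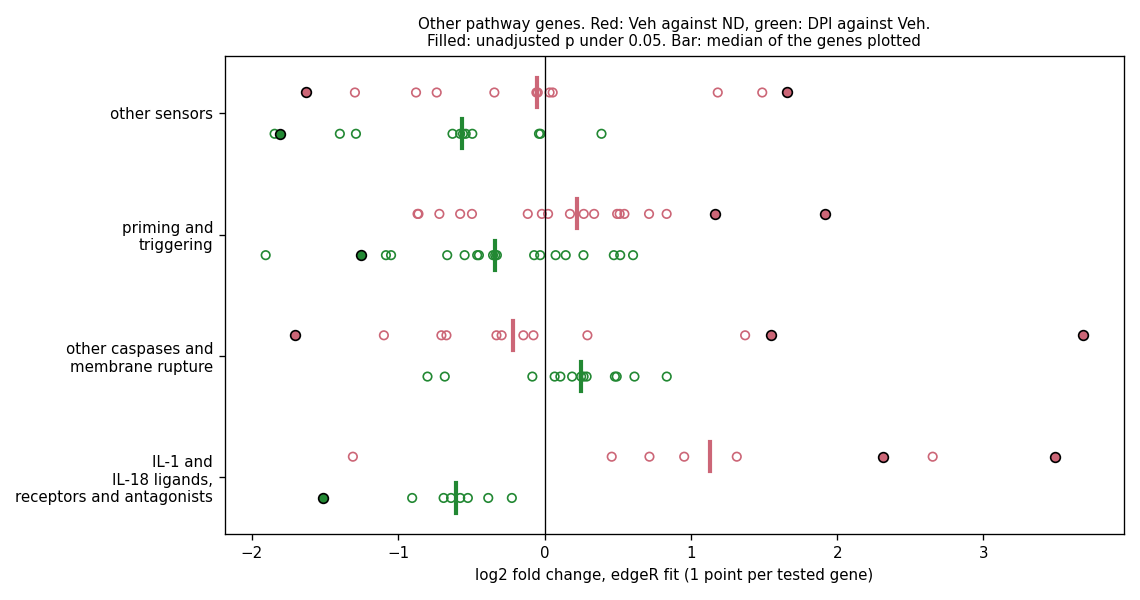
log2 fold change from the edgeR fit of each tested gene of the 4 further lists, for Veh against ND (red) and DPI against Veh (green), filled where the unadjusted p was under 0.05, with the median of the drawn genes as a bar. Genes at or under 3 counts throughout a group (Gbp5, Casp12 and Il1a in the comparisons this touches) are not drawn. Of the IL-1 and IL-18 genes drawn, all lie below 0 for DPI against Veh, whereas Il1a, not drawn, was called higher, and of the other sensors all but 1 do.

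Among the other sensors, 11 of 12 had a negative log2 fold change for DPI against Veh, where 53.1% of all genes had a positive one, and only Nod2, a sensor of bacterial muramyl dipeptide, was called. Nod2 had 5.65 and 10.3 CPM in ND, 31.1, 8.34 and 27.8 CPM in Veh, and 7.23, 9.17, 1.3 and 7.86 CPM in DPI, a log2 fold change of -1.81 (SE 0.67, unadjusted p = 0.0174, edgeR quasi-likelihood test). As with Nlrp3, Veh 1 and Veh 3 were high and Veh 2 lay among the other groups. Zbp1, a sensor of Z-form nucleic acids, was higher in Veh than in ND by 1.65 on the log2 scale (SE 0.45, unadjusted p = 0.00254, adjusted p = 0.179, edgeR), with 14.4 and 33.6 CPM in ND and 91, 53.5 and 82.3 CPM in Veh. It was also above ND in DPI, by 1.11 (SE 0.42). Nlrp1a, with 31 and 15.9 CPM in ND, had 13.1, 3.63 and 5.95 CPM in Veh and 2.6 to 7.54 CPM in DPI, log2 fold changes of -1.63 (SE 0.73) for Veh and -2.12 (SE 0.68) for DPI against ND. Nlrp1c-ps, listed as a pseudogene, gave -2.17 (SE 0.78) for DPI against ND.

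Of the genes for priming and triggering, Nlrc5, a member of the sensor family that drives MHC class I genes, was called in both directions. It had 22 and 14.4 CPM in ND, 98.1, 40.8 and 67.9 CPM in Veh, and 21, 43.5, 29.3 and 22.4 CPM in DPI. The log2 fold changes were 1.92 (SE 0.50, unadjusted p = 0.00179, adjusted p = 0.159) for Veh against ND and -1.25 (SE 0.38, unadjusted p = 0.00574, adjusted p = 0.999) for DPI against Veh (edgeR quasi-likelihood test), on shared Veh libraries. Gbp5, a guanylate-binding protein that promotes NLRP3 assembly, had 2 and 0 counts in ND, 130, 17 and 100 in Veh, and 163, 34, 48 and 60 in DPI. It was at least 34.2-fold higher in Veh and at least 16.5-fold higher in DPI than in ND, measured against 3 counts per ND library. Fadd, an adaptor of caspase-8, had 11.5 and 14.8 CPM in ND and 29.1, 29.7 and 29.5 CPM in Veh, a log2 fold change of 1.17 (SE 0.46, unadjusted p = 0.0246, edgeR).

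Of the genes for membrane rupture, Ninj1, whose product tears the plasma membrane at the end of pyroptosis, had 76.7 and 85.9 CPM in ND, 202, 326 and 185 CPM in Veh, and 79.3, 92.7, 233 and 187 CPM in DPI. Veh lay above ND without overlap, by 1.55 on the log2 scale (SE 0.46, unadjusted p = 0.00505, edgeR quasi-likelihood test). The low DPI libraries were again DPI 1 and DPI 2. Within DPI these had the least neutrophil, B cell and dendritic cell marker RNA and the most sinusoidal endothelial marker RNA. Serpinb9, a granzyme B inhibitor, split in the same way, with 2.45 and 2.38 CPM in DPI 1 and DPI 2 and 20.2 and 20.9 CPM in DPI 3 and DPI 4, and was called higher in Veh (86, 140 and 64 counts) than in ND (17 and 0 counts, unadjusted p = 0.0152, edgeR), with no fold given because 1 of the 2 ND libraries was at 0. The part of any of these cell type markers in the values was not tested.

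Of the IL-1 and IL-18 genes, Il1rn, which encodes the IL-1 receptor antagonist, had 6.74 and 48 CPM in ND, 154, 122 and 132 CPM in Veh, and 28.6, 35, 51.4 and 75.2 CPM in DPI. Each Veh library lay above each ND and DPI library. The ND libraries lay far apart, so the size of the difference from ND depends on which of them it is taken against. The log2 fold changes were 2.32 (SE 0.66, unadjusted p = 0.00347, adjusted p = 0.198) for Veh against ND and -1.52 (SE 0.50, unadjusted p = 0.00896, adjusted p = 0.999) for DPI against Veh (edgeR quasi-likelihood test). Il1b, the main cytokine that caspase-1 matures, had 205 and 727 CPM in ND, 717, 1263 and 730 CPM in Veh, and 196, 168, 623 and 1436 CPM in DPI, with DPI 1 and DPI 2 lowest, and passed no test. Il1a was at 0 counts in all Veh libraries, with 16 and 41 counts in ND and 9, 0, 20 and 7 in DPI and was called lower in Veh than in ND (unadjusted p = 0.00743, edgeR), with no fold given because the ND libraries lay far apart. In the fit it was also called higher in DPI than in Veh (unadjusted p = 0.0243, edgeR), but only DPI 3, at 3.71 CPM, stood clear of what 3 counts amount to in CPM in the Veh libraries, and no fold is given. Il18rap, a subunit of the IL-18 receptor that T and NK cells carry, had 1.82 and 2.8 CPM in ND, 13.3, 21.6 and 43.6 CPM in Veh, and 0.613, 5.09, 20 and 41 CPM in DPI. It gave 3.49 (SE 1.29, unadjusted p = 0.0174, edgeR) for Veh against ND, while 12 measured T and NK cell markers summed to 92.5 and 362.5 CPM in ND, 226 to 433 CPM in Veh and 287 to 506 CPM in DPI. Within DPI, Il18rap was lowest in DPI 1 and DPI 2, as Ninj1 and Serpinb9 were. DPI 1 and DPI 2 had the least neutrophil, B cell and dendritic cell marker RNA of the group. T and NK cell markers were lowest within DPI in DPI 1 and highest in DPI 2. Il1f9, now named Il36g, was lower in DPI than in ND, with a log2 fold change of -2.21 (SE 0.66, unadjusted p = 0.00482, edgeR).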

How the data were processed

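Whole-number raw counts per gene symbol, deposited by the authors without normalization, were used for 9 mouse libraries grouped by the sample labels. The methods name alignment to mm10 with counting by bowtie2 and RSEM, whereas the submitters' processing notes name TopHat2 and edgeR. The annotation and strand setting are not given in the sources used here. RSEM shares reads among similar genes. The test was edgeR 4.0.16 under R 4.3.3 (filterByExpr, TMM, robust quasi-likelihood fit of 3 groups over all 9 libraries) with p adjusted by Benjamini-Hochberg over the 11393 genes tested. limma 3.58.1, DESeq2 1.42.0, Python 3.11.15, pandas 2.3.3, numpy 2.4.6 and matplotlib 3.10.9 were also loaded. The sample titles number the mice. If these were not separate animals, p-values measure only the spread between libraries. Molecular identifiers are not named in the sources used here, so the floor of 3 counts covers counting error only.

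All members were named. From each further list at most 3 genes with the smallest unadjusted p under 0.05 were named per comparison, and Naip2, Naip5, Naip6, Il1b and the motifs were added after their values had been seen. One further gene that met this rule is not reported here. Older symbols (Emr1, Dfna5, Il1f9, Chi3l3) were matched by hand. The members and lists were chosen with earlier results of these data known. Positions and lengths came from GENCODE M21 (GRCm38), promoters from RefSeq. The edgeR script was tested on simulated counts. Alternatives were RLE or no scaling factors, other filters, DESeq2, a likelihood ratio test, 2-group fits, a replicate block, removal of Rn45s, thinning, each library left out, and, added after the data were seen, a neutrophil covariate, DPI 1 and DPI 2 left out together, and lengths of the longest coding and the shortest transcript.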

Additional observations from a re-analysis of the deposited data

Results flagged for a closer look

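Txnip in DPI 4, at 169.7 CPM, stood apart from the other 3 DPI libraries (117 to 122 CPM) by more than Dixon's 95% critical value for 4 samples. It was the only one of the 10 members with such a library in the DPI group, and chance flags about 1 group in 20. The cause was not tested.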

How the results depend on the processing

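The number of members called at the study's threshold was 0 for Veh against ND, 1 for DPI against Veh and 0 for DPI against ND, and it stayed so under most settings. For DPI against Veh it was 0 with scaling by library size alone (Nlrp3 at an unadjusted p of 0.0589) and 0 with DPI 1 and DPI 2 left out together, and between 0 and 2 with each library left out. For Veh against ND it was 1 with the neutrophil covariate (Nlrc4) and 1 without DPI 1 and DPI 2 (Nlrp3), and between 0 and 1 with each library left out, as it was for DPI against ND. The calls gained without ND 1 were Nlrc4, set against 1 ND library with 1 count. With the replicate number as a block the counts were 0, 1 and 0. Deviations of same-numbered libraries from their group means had r from -0.022 to 0.084 over 7 pairs. The deviations of ND 1 and ND 2 mirror each other by construction. These values therefore cannot decide whether same-numbered libraries share more than a number. The block moved no member call. Under it Nlrp3 had log2 fold changes of 0.71 for Veh against ND, -1.81 for DPI against Veh and -1.10 for DPI against ND, the last against -0.07 without it. With library size alone, 4 other sensors were called for Veh against ND (2 with TMM), and for DPI against ND 2 priming genes (1) and 0 caspase and rupture genes (1). Over all genes, adjusted calls for Veh against ND, DPI against Veh and DPI against ND numbered 8, 0 and 2. They numbered 398, 2 and 267 with DESeq2, 280, 1 and 186 with edgeR's likelihood ratio test, 38, 0 and 22 without a filter, 586, 0 and 596 without ND 2, and 0 in each with the block or with only the 2 groups compared. At the study's threshold, DPI against Veh had 64 higher and 132 lower genes with at least 10 counts in every library (8 members tested), 269 and 340 without a filter, 60 and 126 without DPI 1 and DPI 2, 116 and 62 without Veh 1, and 146 and 250 with the block. Veh against ND had 372 and 346, and DPI against ND 241 and 278, with at least 10 counts in every library, and 1765 and 841, and 1785 and 820, without ND 2.

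Of the member fold changes recomputed, 561 kept their direction and their side of an unadjusted p of 0.05, whatever their size, 47 turned sign, 8 gained and 8 lost an unadjusted p under 0.05. Without Veh 2, Aim2 for DPI against Veh reached -1.09 and so also passed the study's threshold. Signs turned as follows, all for log2 fold changes that had not passed the test. With library size alone, Veh against ND was -0.11 for Aim2, -0.20 for Pycard, -0.20 for Casp4 and -0.23 for Gsdmd, and DPI against ND was -0.093 for Pycard. With the block, DPI against Veh was 0.038 for Nlrp1b and 0.11 for Nlrc4. With the neutrophil covariate, Veh against ND was -0.036 for Casp4, DPI against Veh was -0.048 for Pycard, 0.071 for Casp4 and -0.05 for Il18, and DPI against ND was 0.035 for Casp4. Without DPI 1 and DPI 2, DPI against Veh was -0.15 for Pycard, 0.063 for Casp4, -0.046 for Gsdmd and -0.069 for Il18, and DPI against ND was 0.48 for Nlrp3, -0.052 for Pycard, 0.13 for Casp4, -0.0022 for Gsdmd and 0.025 for Txnip. With each library left out, Veh against ND ran from -0.02 to 0.41 for Aim2, -0.48 to 1.04 for Casp4, -0.32 to 0.58 for Gsdmd and -0.85 to 0.37 for Il18. DPI against Veh ran from -0.86 to 0.41 for Nlrp1b, -0.75 to 0.23 for Nlrc4, -0.058 to 0.16 for Pycard, -0.065 to 0.33 for Casp1, -0.25 to 0.069 for Casp4 and -0.30 to 0.27 for Il18. DPI against ND ran from -0.56 to 0.74 for Nlrp3, -0.75 to 0.035 for Casp1, -0.58 to 0.93 for Casp4, -0.015 to 0.89 for Gsdmd, -0.78 to 0.43 for Il18 and -0.30 to 0.21 for Txnip. The cause of these changes was not tested. Thinning all libraries to the smallest total left the member counts called at 0, 1 and 0, and the SE of Nlrp3 for Veh against ND was 0.69 both with and without it.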
